A study of Mus musculus with 21 samples.

Results

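Haemoglobin and red cell genes were followed through 21 RNA sequencing libraries of mouse dorsal root ganglia, which hold the cell bodies of sensory neurons, their glia and a dense supply of blood vessels. The genes were chosen by name: the adult alpha-globin genes Hba-a1 and Hba-a2, the adult beta-globin genes Hbb-bs and Hbb-bt, and the red cell genes Alas2, Slc4a1, Ahsp and Hemgn. Of these 8, 7 had a row among the 24381 genes shared by both deposited count tables. Ahsp was not analysed here, because no row of either table used carried that symbol. By their titles the libraries came from Tmem45b-flox mice (flox here) or Tmem45b-flox::Mrgprd-cre mice (conditional knockout, cKO). The driver expresses Cre from the gene of a receptor found on a class of nociceptors, so that blood cells are not its intended target. The field for genotype names the Cre line for all 21 libraries, and the titles were followed. The floxed allele was thus common to all 21 libraries. Untreated ganglia gave 3 flox and 3 cKO libraries with LDRG in their names, and 3 flox and 4 cKO libraries named con or ko, called con/ko here. A CFA model (usually complete Freund's adjuvant, an inflammatory agent; the labels give only the letters) gave 4 flox and 4 cKO libraries. Each con/ko name also carried a letter F or M and a letter C or L, which the labels do not spell out: flox 4 was FC, flox 5 FL, flox 6 ML, cKO 4 and 5 FC, cKO 6 MC and cKO 7 ML. The labels give no ages and do not say whether each library is 1 animal, so every p-value rests on library-to-library spread, which may be partly technical.

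Haemoglobin is a tetramer of alpha and beta globin chains, each holding a haem group that binds oxygen, and it fills the red cell. Developing red cells switch on the globin genes with Alas2, the red cell form of the first enzyme of haem synthesis, Slc4a1, which encodes the band 3 anion exchanger of the red cell membrane, and Hemgn, a nuclear protein of red cell precursors. Red cells lose their nucleus in the marrow and enter the blood as reticulocytes that still hold messenger RNA, above all globin RNA, while the membrane and nuclear protein messages decline as the cell matures. In bulk tissue these genes are commonly used as markers of red cells, although low globin expression is also known in some neurons. Fewer red cells and less RNA per red cell cannot be told apart in such data.

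The alpha genes lie on chromosome 11 of build mm10, Hba-a1 from 32283511 to 32284465 and Hba-a2 from 32296489 to 32297298 on the plus strand, and the beta genes on chromosome 7, Hbb-bs from 103826534 to 103828096 and Hbb-bt from 103812524 to 103813996 on the minus strand. Alas2 lies on the X chromosome from 150547375 to 150570638 (plus strand), Slc4a1 on chromosome 11 from 102348824 to 102366203 (minus strand) and Hemgn on chromosome 4 from 46393989 to 46413506 (minus strand), all annotated as protein-coding. Each globin pair is a near-identical copy. The coding sequences of Hba-a1 and Hba-a2 (426 bases each) differed at 1 base, and those of Hbb-bs and Hbb-bt (441 bases each) at 1 base. A read lying wholly in the coding part can be assigned to 1 copy only if it covers the differing base. Those single coding differences are shown in capitals (C381T from Hba-a1 to Hba-a2 and C417T from Hbb-bs to Hbb-bt, counted from the first base of the start codon).
Hba-a1: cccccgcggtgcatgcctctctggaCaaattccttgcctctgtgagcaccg
Hba-a2: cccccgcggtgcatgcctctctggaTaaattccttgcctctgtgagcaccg
Hbb-bs: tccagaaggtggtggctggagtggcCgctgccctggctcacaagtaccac
Hbb-bt: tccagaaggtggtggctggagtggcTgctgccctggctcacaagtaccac
Of all 150-base stretches of the Hba-a1 transcript, 48.4% occurred unchanged in Hba-a2, and 58.7% of those of Hbb-bs in Hbb-bt. The sources used here do not say how such reads were assigned, so the division of reads within each pair is uncertain and the pair totals are firmer.

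Since the members moved together, the 250 bases before the start of 6 of them were searched in the RefSeq promoter table (build GRCm38.p6; Slc4a1 had no entry that matched). The motifs were the Gata1 motif (AGATAA and its 3 variants with T first or G last), CACCC (within the letters bound by Klf1) and CCAAT, each on both strands, and TATAA on the plus strand. The Gata1 motif was present before 5 of the 6 genes, against 26.5% of all 32841 promoter windows of that length, CACCC before 5 (52% of all windows), CCAAT before 4 (33.9%) and TATAA before all 6 (16%). An alpha, both beta and the haem gene are shown up to the first annotated exon base, with motifs in capitals; nearer motifs of the beta genes and Alas2 lie past the printed end. Hba-a2 is from chr11:32296242-32296488, Hbb-bs from chr7:103828097-103828178 (minus strand), Hbb-bt from chr7:103813997-103814173 (minus strand) and Alas2 from chrX:150547167-150547374.
Hba-a2: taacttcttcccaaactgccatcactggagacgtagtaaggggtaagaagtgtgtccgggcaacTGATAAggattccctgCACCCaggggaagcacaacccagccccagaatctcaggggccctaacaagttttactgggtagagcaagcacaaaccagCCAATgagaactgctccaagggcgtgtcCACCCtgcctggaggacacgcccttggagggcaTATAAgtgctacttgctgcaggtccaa
Hbb-bs: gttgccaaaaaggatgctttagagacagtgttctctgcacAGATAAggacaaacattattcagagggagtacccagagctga
Hbb-bt: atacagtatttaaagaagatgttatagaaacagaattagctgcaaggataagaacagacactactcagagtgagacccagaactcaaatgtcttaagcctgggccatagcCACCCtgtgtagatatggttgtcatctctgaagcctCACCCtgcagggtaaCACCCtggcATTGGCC
Alas2: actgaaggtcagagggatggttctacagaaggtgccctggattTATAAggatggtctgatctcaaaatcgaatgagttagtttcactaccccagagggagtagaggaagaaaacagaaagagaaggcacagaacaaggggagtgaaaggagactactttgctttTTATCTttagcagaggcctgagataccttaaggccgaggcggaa
In Hba-a2 the Gata1 motif comes first, then CACCC, then CCAAT, then CACCC again and TATAA last. The last capitals of Hbb-bt are CCAAT read on the other strand and the start of a further CCAAT that runs past the printed end. TATAA lay 27 to 30 bases before the start in the globins, but 207 bases before it in Alas2 and 80 in Hemgn. Hba-a1 and Hba-a2 held the same motifs at nearly the same distances, so these copies are not independent cases in the counts. These matches describe letters only.

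Libraries held 53.4 M to 72.5 M counts each. Markers of ganglion neurons (8 genes, among them Tubb3, Prph and Scn10a) summed to between 10638 and 16432 CPM (counts scaled to library size) in every library, so the labelled tissue held its defining cells. Tmem45b, the targeted gene, lay at 123.9 to 178.8 CPM in untreated flox and 59.9 to 88.9 CPM in untreated cKO libraries, but at 65.8 to 135.4 CPM in libraries labelled CFA flox and 61.8 to 108.3 CPM in those labelled CFA cKO, so that it did not separate the CFA labels. The LDRG and con/ko libraries are both untreated and differ in set of names and in deposited table. The CFA and LDRG libraries share a table and differ in treatment and set of names, and the CFA and con/ko libraries differ in all 3. In comparisons of CFA libraries, treatment and set of names therefore cannot be told apart.

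Globin levels fell into 3 bands that followed the 3 sets of library names. Hba-a1 stood at 14.3, 9.41 and 9.55 CPM in LDRG flox and 12.3, 12.05 and 11.2 CPM in LDRG cKO libraries. In CFA flox it was 149.8, 50.8, 121.0 and 158.8 CPM, and in CFA cKO 122.4, 56.8, 76.4 and 75.6 CPM. The con/ko flox libraries 4 to 6 had 656.4, 408.3 and 844.0 CPM, and the con/ko cKO libraries 4 to 7 had 730.4, 436.6, 747.1 and 1105 CPM. The lowest CFA library thus exceeded the highest LDRG library, and the lowest con/ko library exceeded the highest CFA library, while flox and cKO overlapped within each set. Hba-a2, the second alpha gene, ran from 8.66 to 12.1 CPM in LDRG (median 11.2), 49.6 to 148.0 in CFA (median 89.7) and 386.6 to 1022 in con/ko libraries (median 681.9).

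Of the beta genes, Hbb-bs ran from 9.72 to 18.0 CPM in LDRG, from 64.6 to 200.7 in CFA and from 465.2 to 1263 in con/ko libraries. Hbb-bt was the lowest of the 4 globins: 8.70, 5.45 and 5.06 CPM in LDRG flox, 6.65, 7.06 and 7.77 in LDRG cKO, 90.6, 33.9, 70.2 and 102.3 in CFA flox and 73.8, 33.7, 37.3 and 44.8 in CFA cKO. Its con/ko values were 462.1, 295.6 and 650.5 CPM in flox 4 to 6 and 489.7, 354.6, 516.7 and 834.1 CPM in cKO 4 to 7. Again no library of one set reached the range of the next. Together the 4 globins took between 0.00327% and 0.00515% of all counts in LDRG, 0.0196% to 0.0590% in CFA and 0.163% to 0.440% in con/ko libraries.

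Alas2 followed the globins at a lower level. It stood at 0.72, 0.46 and 0.36 CPM in LDRG flox and 0.60, 0.71 and 0.40 CPM in LDRG cKO, on counts of 24 to 51 per library. In CFA flox it was 11.2, 3.996, 7.02 and 9.44 CPM, in CFA cKO 6.52, 3.41, 3.25 and 5.05 CPM, in con/ko flox 34.1, 30.2 and 73.02 CPM and in con/ko cKO 40.2, 20.5, 49.0 and 87.0 CPM. The 3 sets did not overlap for this gene either.

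Slc4a1 had 0.17, 0.27 and 0.33 CPM in LDRG flox and 0.40, 0.57 and 0.25 CPM in LDRG cKO (12 to 40 counts), and 7.88, 1.78, 5.96 and 6.95 CPM in CFA flox and 5.27, 4.11, 1.77 and 3.84 CPM in CFA cKO. In con/ko libraries it spread far more than the globins: 21.1 CPM in flox 4 (coded C), 42.8 and 109.8 CPM in flox 5 and 6 (coded L), 15.1, 5.44 and 12.5 CPM in cKO 4 to 6 (coded C) and 157.9 CPM in cKO 7 (coded L). The con/ko library lowest for this gene lay inside the CFA range. Hemgn was scarce outside the con/ko set, at 0.06, 0.21 and 0.06 CPM in LDRG flox, 0, 0.28 and 0 CPM in LDRG cKO, 0.90, 0, 0.52 and 1.23 CPM in CFA flox and 0.60, 0.33, 0.19 and 0.42 CPM in CFA cKO. A count of 0 allows up to 3 counts, or 0.0431 to 0.0495 CPM in these libraries, for counting error only. Its con/ko values were 3.04, 7.38 and 16.4 CPM in flox 4 to 6 and 2.28, 0.88, 0.98 and 20.1 CPM in cKO 4 to 7, again with the L-coded libraries highest.

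**Figure D1:**
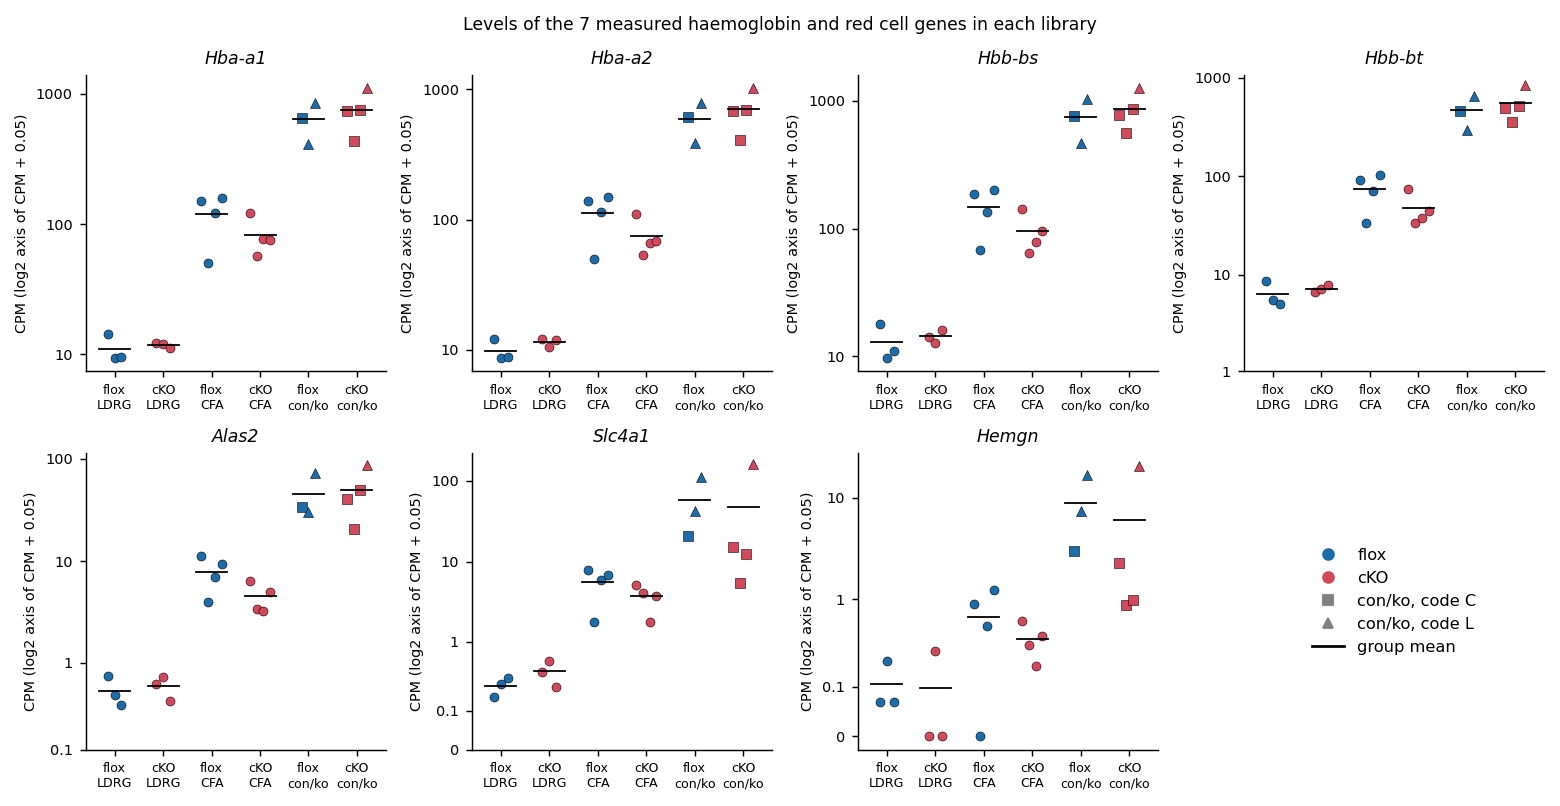
Level of each measured gene in each library, in CPM on a log2 axis of CPM + 0.05, for the 6 groups; points are libraries, squares and triangles mark con/ko libraries coded C and L, and bars are group means. The 4 globins and Alas2 form 3 separate bands, with Hba-a1 at 9.41 to 14.3 CPM in LDRG, 50.8 to 158.8 in CFA and 408.3 to 1105 in con/ko libraries, while Slc4a1 and Hemgn spread most within the con/ko set.

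Per kilobase of annotated exon, Hba-a1, Hba-a2 and Hbb-bs were close in level and Hbb-bt lower. In con/ko libraries the medians were 899.6, 1022, 1012 and 696.6 CPM per kilobase for Hba-a1, Hba-a2, Hbb-bs and Hbb-bt, against 16.7 for Alas2, 4.32 for Slc4a1 and 1.21 for Hemgn. The order of the last 3 was the same in LDRG libraries, at 0.22, 0.06 and 0.02 CPM per kilobase. Within con/ko the ranges of Hba-a1 (502.8 to 1361 CPM per kilobase) and Hbb-bt (420.5 to 1187) overlapped, as did those of Slc4a1 (1.11 to 32.3) and Alas2 (8.53 to 36.2). Within each of the 7 con/ko libraries, however, Hba-a1 stood above Hbb-bt and Alas2 above Slc4a1. Hbb-bs mostly stood above Hba-a2, although its con/ko median was the lower. Hba-a2 was the higher in 1 of the 7 con/ko, 1 of 6 LDRG and 0 of 8 CFA libraries. These 2 genes are close, and their order rests on the exon lengths used (667 bases for Hba-a2 and 768 for Hbb-bs). Their transcripts compared above have 554 and 628 bases, and the order was not taken with those.

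The comparison of con/ko with LDRG libraries sets untreated ganglia against untreated ganglia. All 7 members were higher in con/ko by edgeR's quasi-likelihood test with Benjamini-Hochberg adjustment over all genes, where 26.1% of 16706 genes were called higher. Hba-a1 was 61.3-fold higher (log2 difference 5.94, SE 0.26, adjusted p = 2.26e-08) and Hbb-bt 76.0-fold (6.25, SE 0.27, adjusted p = 2.26e-08). The log2 differences of Hba-a2 and Hbb-bs were 5.94 and 5.91. Alas2 rose by 6.46 (SE 0.41), Slc4a1 by 7.30 (SE 0.96, adjusted p = 5.87e-05) and Hemgn by 6.14 (SE 1.08, adjusted p = 0.000524). The members' median was 6.14 and that of all genes 0.04. For every one of the 7, all con/ko libraries lay above all LDRG libraries. Ranges of these sets were apart, in either direction, for 25% of 16928 genes. With con/ko libraries coded C alone, all 7 were called too, and the log2 differences of Slc4a1 and Hemgn were then 5.35 and 4.19.

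Setting CFA against LDRG libraries stays within 1 deposited table, but treatment cannot be told apart from set of names. In this comparison 6 of the 7 members rose, against 9.51% of 16605 genes called higher. Hba-a1 rose 8.69-fold (log2 3.12, SE 0.26, adjusted p = 1.95e-05, edgeR), Hba-a2 by 3.11, Hbb-bs by 3.13 and Hbb-bt by 3.13 on the log2 scale. Alas2 rose 11.1-fold (3.47, SE 0.29, adjusted p = 1.95e-05) and Slc4a1 14.1-fold (3.82, SE 0.38, adjusted p = 8.28e-05). Hemgn stood at 2.28 (SE 0.90, adjusted p = 0.1, DESeq2 adjusted p = 0.0444) and did not pass; its ranges overlapped at 0 to 0.28 CPM. The same 6 were apart in range, as were 6.27% of all genes. Without LDRG cKO 2, which had 20 Hemgn counts, the most of its set, the Hemgn difference was 5.15 and passed (edgeR adjusted p = 0.0259), and without CFA flox 2, which had 0, it passed too, so that single libraries decided this call. The members' median was 3.13, against 0.00 for all genes. This comparison and the one before share the LDRG libraries.

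Against the con/ko libraries, the CFA libraries were lower for all 7 members, where 28% of 16928 genes were called lower. The log2 differences were -2.80 for Hba-a1 (SE 0.25, 6.95-fold, adjusted p = 1.32e-07, edgeR), -2.82 for Hba-a2, -2.77 for Hbb-bs and -3.10 for Hbb-bt (SE 0.26, 8.55-fold). Alas2 stood at -2.98 (SE 0.31), Slc4a1 at -3.51 (SE 0.61, adjusted p = 0.000112) and Hemgn at -3.86 (SE 0.82, adjusted p = 0.000701). So the direction of a CFA difference in these genes depended on which untreated set it was taken against, being higher against LDRG and lower against con/ko. Ranges were apart for 5 members, the globins and Alas2, against 19.6% of all genes. With con/ko libraries coded C alone the difference was -2.02 for Hemgn, no longer called (adjusted p = 0.05), and -1.73 for Slc4a1. Across all 16928 genes, 57 (0.337%) had every LDRG library below every CFA library and every CFA library below every con/ko library. Of those 57, 5 were members, the globins and Alas2. This order was the one the members had already shown, so the count describes them and tests nothing. The globins come in near-identical pairs, so the 5 are not separate cases.

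Genotype was compared within these sets. In untreated libraries 0 of 7 members passed the test between cKO and flox (set of names as a covariate), where 0.00599% of 16706 genes, 1 gene, were called; 0 members had an unadjusted p under 0.05, and DESeq2 called 0. Hba-a1 differed by 0.17 (95% interval -0.28 to 0.62), Alas2 by 0.11 (-0.61 to 0.84), Slc4a1 by -0.03 (-1.72 to 1.66) and Hemgn by -0.46 (-2.40 to 1.49). For Slc4a1 and Hemgn the intervals reach beyond 1 log2 unit on both sides of 0. In CFA libraries 0 of 7 members passed, and 0% of 16116 genes were called; DESeq2 called 0 of the 7. All 7 estimates were lower in the libraries labelled cKO: Hba-a1 by -0.53 (95% interval -1.30 to 0.24), Hbb-bt by -0.64 (-1.41 to 0.13), and Alas2 by -0.79 (-1.53 to -0.05, unadjusted p = 0.0383, adjusted p = 0.938, edgeR), the only member of the 7 with an unadjusted p under 0.05. Ranges of flox and cKO overlapped for every member in each of the 3 sets. The test of whether the genotype difference changed with CFA called 0 of 7 members and 0% of 16605 genes, with 0 members at an unadjusted p under 0.05 and 0 called by DESeq2. The estimates ran from -0.62 for Hemgn to -1.26 for Slc4a1 (SE 0.71, 95% interval -2.79 to 0.27).

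**Figure D2:**
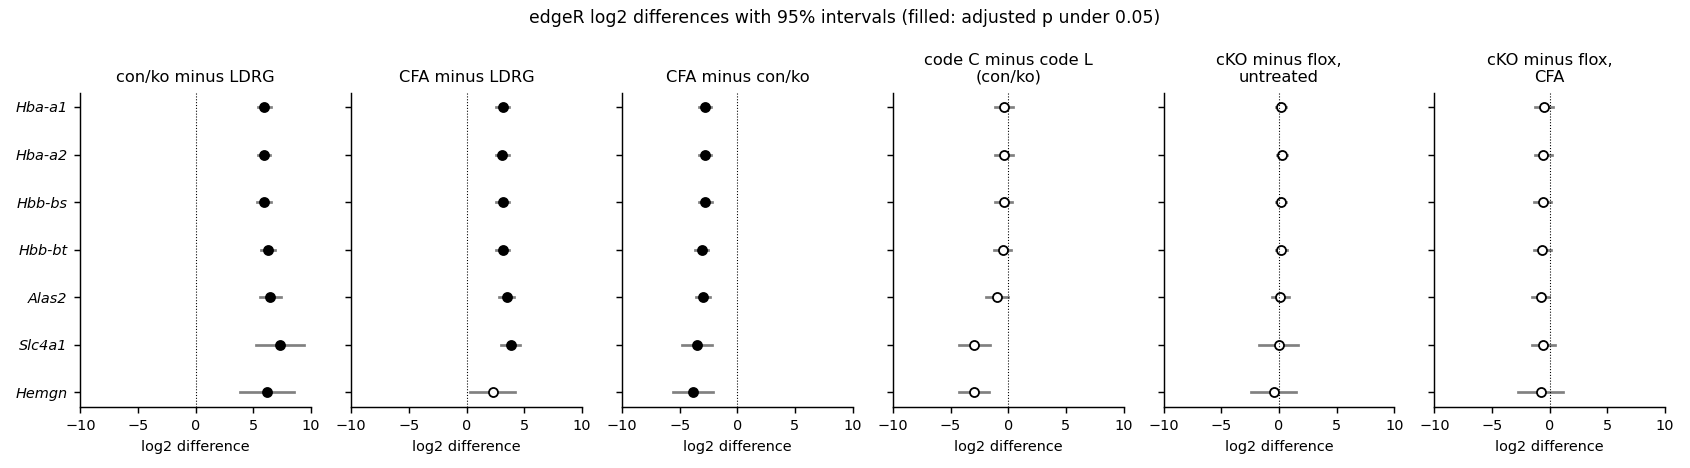
Fitted log2 differences of the 7 members in 6 comparisons (x axis, log2 scale), with 95% intervals as bars; filled points passed an adjusted p of 0.05. Differences between sets of libraries lie far from 0 (Hba-a1 at 5.94, 3.12 and -2.80), whereas the intervals of the genotype differences hold 0 except for Alas2 in CFA libraries (-1.53 to -0.05).

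The other red cell genes were next set against the globins of the same library, and 0 of the 12 comparisons made for these 3 genes passed adjustment (lowest adjusted p = 0.137, exact permutation test). Alas2 gave 8.43 to 16.8 counts per 1000 globin counts in LDRG, 12.6 to 19.9 in CFA and 11.6 to 22.1 in con/ko libraries, overlapping ranges for a gene whose level changed 88.2-fold between the outer sets. Slc4a1 gave 3.21 to 13.4 counts per 1000 in LDRG and 6.87 to 19.7 in CFA libraries. In the con/ko set it gave 3.08 to 8.45 in the 4 libraries coded C and 27.5, 33.2 and 37.4 in the 3 coded L (flox 5, flox 6 and cKO 7), a mean of 5.40 ± 2.29 (SD, n = 4) against 32.7 ± 4.95 (n = 3). Hemgn gave 0.35 to 1.22 per 1000 in the C-coded and 4.75, 4.96 and 4.76 in the L-coded libraries, 0 to 6.70 in LDRG and 0 to 2.02 in CFA libraries. The LDRG libraries flox 2 (6.46, from 15 counts) and cKO 2 (6.70, from 20 counts) lay above every L-coded library. A 2-sided exact permutation test gave p = 0.0286 between the letters for both Slc4a1 and Hemgn, the smallest that 35 divisions of 7 libraries allow, and adjusted p = 0.137 over the 24 ratio comparisons made. Alas2 was also apart, at 11.6 to 17.4 per 1000 in C and 19.4 to 22.1 in L (p = 0.0571, adjusted p = 0.171, same exact permutation test). The ratios use counts of 1 library only, so the scaling between libraries does not enter them, and they were chosen after the levels were seen.

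**Figure D3:**
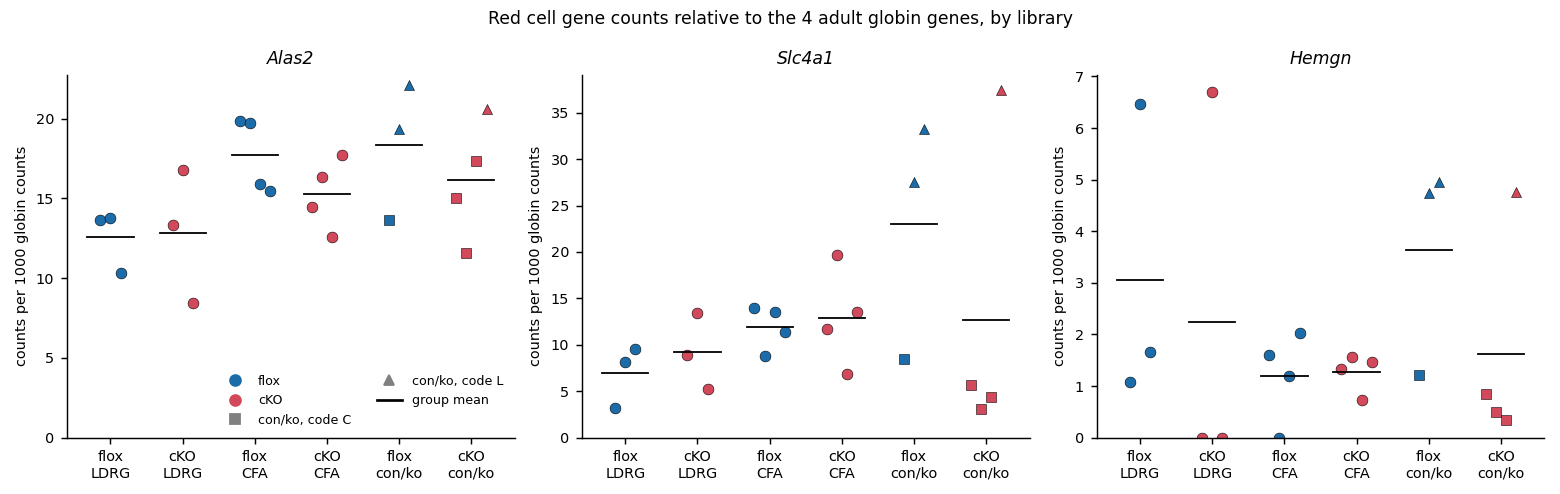
Counts of Alas2, Slc4a1 and Hemgn per 1000 counts of the 4 globins (y axes, linear from 0) in each library of the 6 groups; squares and triangles mark con/ko libraries coded C and L, bars are group means. The 3 L-coded libraries stand at 27.5 to 37.4 for Slc4a1, above the 19.7 of the highest other library; for Hemgn they stand at 4.75 to 4.96, below 2 LDRG libraries at 6.46 and 6.70 that hold 15 and 20 Hemgn counts.

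The balance between the globin genes differed between sets in 1 respect. Hbb-bt gave 0.462 to 0.561 counts per count of Hbb-bs in LDRG libraries, 0.46599 to 0.521 in CFA libraries and 0.599 to 0.660 in con/ko libraries, so that every con/ko library lay above every other one. The means were 0.502 ± 0.0439 (SD, n = 6), 0.498 ± 0.0210 (n = 8) and 0.627 ± 0.0204 (n = 7). A 2-sided exact permutation test gave p = 0.000583 for con/ko against LDRG (adjusted p = 0.00699 over 24 comparisons) and p = 0.000155 for con/ko against CFA (adjusted p = 0.00373), and an adjusted p of 0.905 for CFA against LDRG. The first 2 values are the smallest these numbers of libraries allow. Hba-a2 per count of Hba-a1 was 0.932 ± 0.0787 (n = 6) in LDRG, 0.923 ± 0.0336 (n = 8) in CFA and 0.934 ± 0.00840 (n = 7) in con/ko libraries (exact permutation p from 0.465 to 0.983). Beta counts per alpha count ran from 0.815 to 1.09 over the 21 libraries, with means of 0.915, 0.933 and 0.984 in the 3 sets (exact permutation p = 0.115 for con/ko against LDRG). Because the beta copies are near-identical and the con/ko libraries were counted in another table, a difference in how shared reads were divided cannot be told apart from a difference in the transcripts.

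The letters C and L were then compared within the con/ko set with genotype as a covariate. Here 0 of 7 members passed, where 1.24% of 16481 genes were called lower in C; 2 had an unadjusted p under 0.05 and DESeq2 called those 2. Slc4a1 was 7.58-fold lower in C by estimate (log2 -2.92, SE 0.56, edgeR adjusted p = 0.0563, DESeq2 adjusted p = 0.00268) and Hemgn 7.92-fold lower (-2.99, SE 0.54, edgeR adjusted p = 0.0516, DESeq2 adjusted p = 4.09e-07). Both were apart in range, as were 22.3% of 16440 genes. The globins stood at -0.37 to -0.48 with intervals that hold 0 (Hba-a1 -1.17 to 0.41), and Alas2 at -0.94 (SE 0.41, adjusted p = 0.27). Flox 5, coded L, had the lowest globin level of the con/ko set but the third highest Slc4a1 level. Without cKO 7 the differences of Slc4a1 and Hemgn were -1.84 and -1.95, with adjusted p of 0.587 and 0.569, and without flox 5 both passed (adjusted p = 0.0208 and 0.0217); p over all alternatives ran from 0.00268 to 0.587 for Slc4a1 and from 4.09e-07 to 0.569 for Hemgn.

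Other genes of the red cell were followed as lists, first between the letters, where 1.24% of all genes were called lower in C. Among 18 genes of the red cell membrane and surface, 2 were lower in C and 0 higher (median -1.85): Kel, the Kell blood group protein (-2.90, SE 0.45, adjusted p = 0.0449), and Rhd, a Rhesus protein (-3.13, SE 0.53, adjusted p = 0.0485). Tspan33 stood at -1.63 (adjusted p = 0.057). Of 10 erythroid transcription genes 1 was lower (median -1.89), Tal1, a transcription factor of blood stem cells and red cell precursors (-2.32, SE 0.37, adjusted p = 0.0449), while Gfi1b, Nfe2 and Gata1 had differences of -3.08, -2.84 and -4.23 and adjusted p of 0.0596 to 0.084. Of 14 late red cell enzymes and reticulocyte genes 1 was lower (median -0.42), the carbonic anhydrase gene Car1 (-3.68, SE 0.38, adjusted p = 0.0275). Of the 12 haem synthesis genes 1 was lower in C and 0 higher (median -0.24). Among those not called, Cpox stood at -0.54 (edgeR adjusted p = 0.0673) and Slc25a37, a mitochondrial iron importer, at -0.99 (edgeR adjusted p = 0.0756). Iron uptake and storage genes (7) had 0 calls (median -0.07), with Slc40a1, the iron exporter ferroportin, at -1.60 (adjusted p = 0.0597) and the transferrin receptor gene Tfrc at -0.60. The median of all genes was 0.00. These counts changed when 1 library was left out. No gene of these 5 lists was called without flox 4, flox 6, cKO 4, cKO 6 or cKO 7, and 1 late gene was called without cKO 5. Without flox 5, 8 membrane, 4 transcription, 2 late, 3 haem synthesis and 1 iron gene were called. Without cKO 7 the medians were -1.09 for the membrane, -1.14 for the transcription, -0.18 for the late, and -0.07 for the haem synthesis list.

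In con/ko against LDRG libraries, where 26.1% of all genes were called higher and 21.3% lower, 12 of the 18 membrane genes were higher and 3 lower (median 2.51). Sptb and Gypc, members of that list, rose by 0.64 and 0.67 and Xk fell by 0.58 on the log2 scale, and Sptb (92.6 to 136.0 CPM) and Xk (39.2 to 41.9 CPM) were already abundant in LDRG libraries, where globins were lowest. Of 10 erythroid transcription genes 7 were higher (median 1.78), among them Klf1, an activator of the adult beta-globin gene (4.45, SE 0.95, adjusted p = 0.00208, edgeR). Of the 14 late genes 8 were higher and 1 lower (median 0.46), of 12 haem synthesis genes 7 higher and 1 lower (median 0.14) and of 7 iron genes 3 higher and 1 lower (median 0.30). The iron counts are near those background shares, and nothing is read from them. Alas1, the haem enzyme gene used outside red cells, lay at 46.6 to 52.5 CPM in LDRG and 43.4 to 60.0 CPM in con/ko libraries, overlapping ranges. In CFA against LDRG libraries, where 9.51% of all genes were higher and 7.36% lower, 8 of 17 tested membrane genes rose and 2 fell (median 0.46), with Ermap at 1.77 (SE 0.28, adjusted p = 0.00125), while 1 of 9 erythroid transcription genes (Nfe2, 2.95), 1 of 13 late genes (Trim10, 3.03) and 0 of 7 iron genes rose, and 0 of 12 haem synthesis genes rose and 2 fell (Cpox by 0.27 and Uros by 0.12). In CFA against con/ko libraries, where 28% of all genes were lower and 24.1% higher, 11 membrane genes were lower and 3 higher, 7 transcription genes lower, 9 late genes lower and 1 higher, 8 haem synthesis genes lower and 3 iron genes lower and 1 higher.

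Globins of the embryo were at or near 0: Hba-x, Hbb-bh0, Hbb-bh1 and Hbb-bh2 had 0 counts in all 21 libraries, and Hbb-y had counts in 1 CFA library only. The theta globins Hbq1a and Hbq1b kept to 0.64 to 1.07 CPM and 1.45 to 2.33 CPM over all libraries, without the 3 bands of the adult globins; Hbq1b was lower in CFA than in con/ko libraries (-0.31, SE 0.10, adjusted p = 0.0154). Over all genes, 26.1% were called higher in con/ko than in LDRG libraries and 9.51% higher in CFA than in LDRG libraries. In CFA against con/ko libraries 28% of all genes were called lower. Genes for clearing haemoglobin and haem rose in part. Of 7, 5 were higher in con/ko than in LDRG libraries (median 0.79), among them Cd163, the haemoglobin scavenger receptor of macrophages (1.28, SE 0.21, adjusted p = 0.000294), and Hp, the plasma haemoglobin binder haptoglobin, which neutrophil precursors also store (4.24, SE 0.87, adjusted p = 0.00157). Of 6 tested, 3 rose in CFA against LDRG libraries (Lrp1, 0.54; Cd163, 0.57; Hp, 1.34), and 6 of 7 were lower in CFA than in con/ko libraries. Between the letters Hp was lower in C (-2.88, SE 0.48, adjusted p = 0.0468), while Cd163 stood at 0.31 (adjusted p = 0.663).

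Markers of other blood cells followed the sets of names in part. Between the letters the neutrophil markers were called lower in C, whereas the globins stood at log2 differences of -0.37 to -0.48 and were not called. The 6 further red cell markers, among them Epb42, Rhag, Klf1 and Gata1, summed to 0.37 to 1.31 CPM in LDRG, 1.41 to 5.13 in CFA, 3.81 to 12.6 in C-coded and 21.8 to 79.9 in L-coded con/ko libraries. The 8 neutrophil markers summed to 1.62 to 5.60, 39.8 to 131.1, 142.8 to 271.9 and 497.0 to 2669 CPM in the same order. All 8 were called higher in CFA (median 4.67, against 9.51% of all genes) and in con/ko (median 8.17, against 26.1%) than in LDRG libraries. All 8 were also lower in C than in L (median -3.03, against 1.24% of all genes). Among them were Elane and Mpo, granule enzyme genes switched on in neutrophil precursors of the marrow (-4.13 and -3.84, edgeR adjusted p = 0.0396 and 0.0449). Elane was at 0 in 5 of 6 LDRG libraries, and ran from 0 to 0.42 CPM in CFA, 0.87 to 2.05 in C-coded and 3.89 to 42.4 in L-coded libraries. Without cKO 7 the neutrophil median between letters was -2.12 with 0 genes called; the count was also 0 without flox 6, cKO 4, cKO 5 or cKO 6, 3 without flox 4 and 8 without flox 5. In CFA against con/ko libraries 8 of 8 were lower, against 28% of all genes. With C-coded libraries alone 5 of 8 were lower, where 3950 of 17426 genes were.

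Lymphocyte markers (8 genes) summed to 1.88 to 3.02 CPM in LDRG, 2.60 to 5.69 in CFA, 3.97 to 12.9 in C-coded and 15.4 to 32.7 in L-coded libraries, and blood monocyte markers (4 genes) to 8.44 to 10.7, 12.4 to 27.7, 25.3 to 37.6 and 67.1 to 262.5 CPM. In con/ko against LDRG libraries 4 of 8 lymphocyte and 4 of 4 monocyte markers were higher (against 26.1% of all genes). CFA libraries had 2 of 8 and 2 of 4 higher than LDRG (against 9.51%). They had 5 of 8 and 4 of 4 lower than con/ko (against 28%). The letters gave calls for 0 of 8 and 1 of 4, where 1.24% of all genes were lower in C. The monocyte gene was Chil3 (-2.88, edgeR adjusted p = 0.0449). Summed platelet markers (8 genes) overlapped between sets, at 9.46 to 69.6, 9.19 to 71.3, 50.3 to 71.6 and 16.9 to 53.6 CPM, and Gp1bb alone ran from 3.94 to 63.0, 3.32 to 64.6, 39.1 to 57.5 and 2.69 to 29.9 CPM of that. Gene by gene, 6 of the 8 platelet markers were higher in con/ko than in LDRG (median 2.06, against 26.1% of all genes). In CFA against con/ko libraries 6 of 8 were lower (median -1.62, against 28%). Between CFA and LDRG 0 of 5 tested were called, where 9.51% of all genes were higher and 7.36% lower. Ppbp was called between the letters (-2.54, adjusted p = 0.0479). Without flox 5 the counts between the letters were 5 lymphocyte, 3 monocyte and 2 platelet genes, without flox 4 they were 0, 1 and 1, and without any other single library 0. Skeletal muscle markers (8 genes) varied widely within sets, from 2.52 to 682.6 CPM in LDRG and from 3.10 to 836.9 CPM in con/ko libraries, with Myh4 called between the letters (-3.30, adjusted p = 0.00343). Endothelial markers (7 genes) summed to 80.5 to 101.5 CPM in LDRG, 77.7 to 117.7 in CFA and 110.7 to 140.8 in con/ko libraries. Every con/ko library thus lay above every LDRG library. Of the 7, 5 were higher in con/ko than in LDRG libraries (median 0.45, against 26.1% of all genes). In CFA against LDRG libraries 2 were higher (against 9.51%), and 0 were called between the letters. Of the ganglion neuron markers 6 of 8 were lower in con/ko than in LDRG (median -0.40, against 21.3% of all genes called lower) and 5 of 8 lower in CFA than in LDRG (median -0.15, against 7.36%), with 0 called between the letters. Satellite glia and Schwann cell markers were present throughout, at 475.5 to 874.4 and 3787 to 12686 CPM. Of 4 Schwann cell markers, 3 were higher in con/ko than in LDRG (median 0.75, against 26.1% of all genes). In CFA libraries 4 of 4 were lower than in con/ko (median -0.73, against 28%) and 1 of 4 lower than in LDRG. Of 3 satellite glia markers, 1 was higher and 1 lower in con/ko than in LDRG. Against either untreated set, CFA libraries had 1 higher and 2 lower. Between the letters 0 of either list were called. The part of these cell types in the members' differences was not tested.

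**Figure D4:**
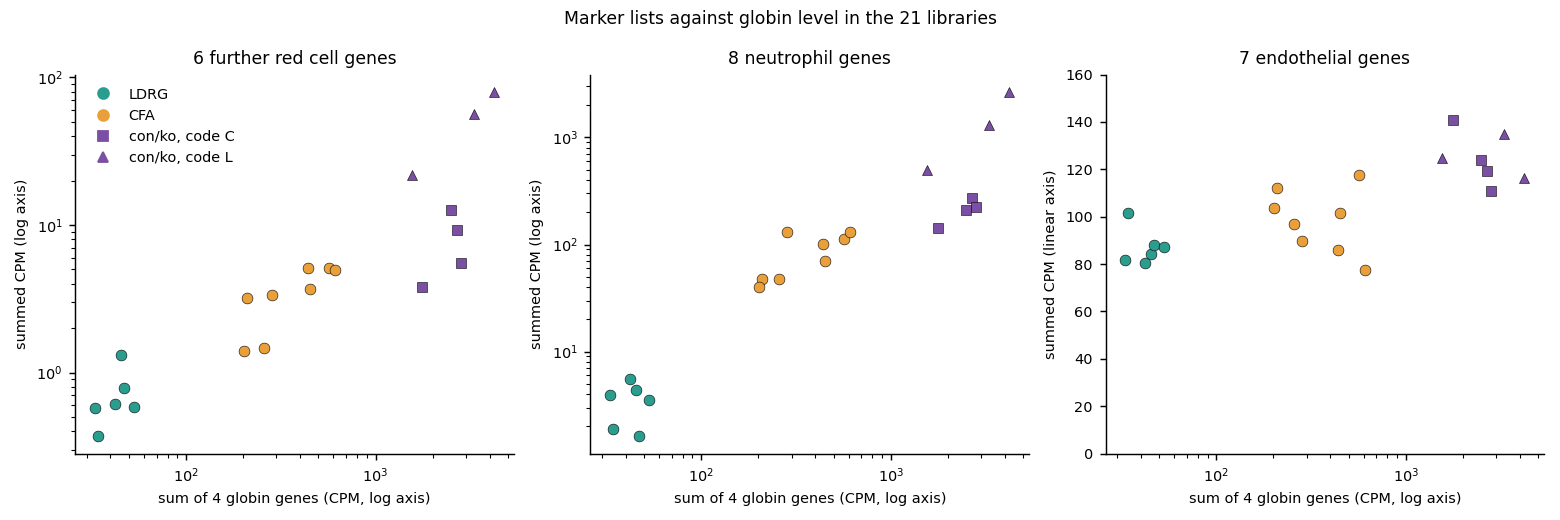
Summed CPM of 6 further red cell, 8 neutrophil and 7 endothelial markers (y axes; log, log and linear from 0) against the summed CPM of the 4 globins (x axes, log) in the 21 libraries, coloured by set. Neutrophil sums rise without overlap from LDRG through CFA to con/ko libraries, red cell sums of CFA (1.41 to 5.13 CPM) and C-coded libraries (3.81 to 12.6) overlap, and neutrophil sums of the L-coded libraries (497.0 to 2669 CPM) lie above those of the C-coded ones (142.8 to 271.9), also in the L-coded library with the lowest globin sum of the con/ko set (1556 CPM). Endothelial sums are 80.5 to 101.5 CPM in LDRG and 110.7 to 140.8 in con/ko libraries.

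**Figure D5:**
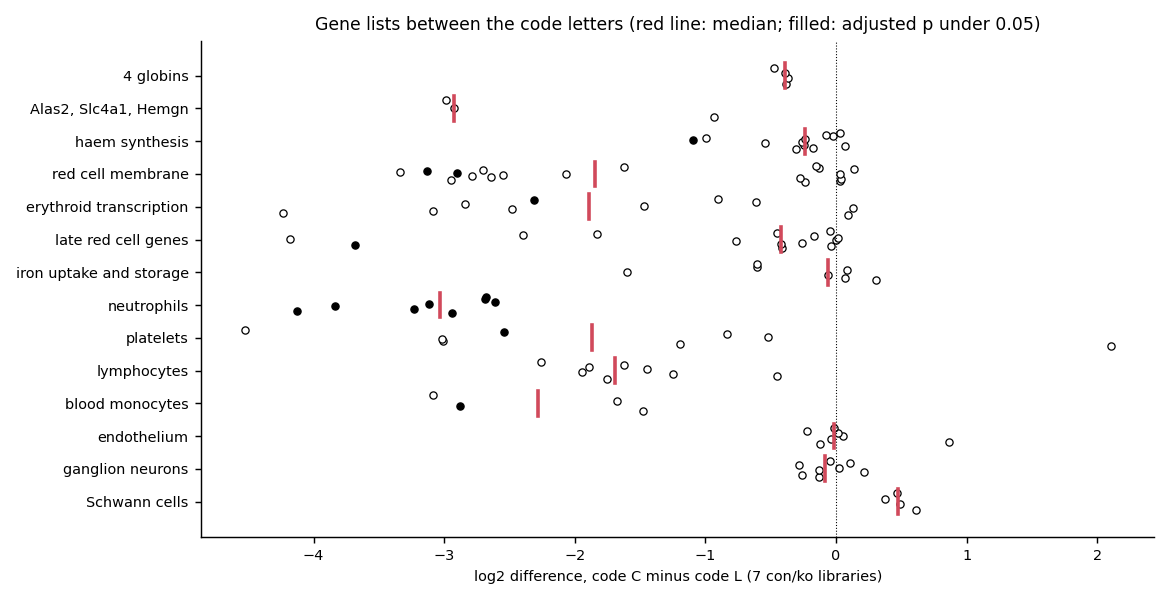
Log2 differences, code C minus code L, for genes of each list among the 7 con/ko libraries (x axis); each circle is a gene, filled where its adjusted p was under 0.05, and red lines are medians. The 8 neutrophil genes are all filled with a median of -3.03, the 4 globins lie between -0.37 and -0.48, and endothelial (-0.02) and ganglion neuron (-0.09) medians are near 0.

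Within the 6 groups, deviations of the 4 globins from their group mean moved together (Pearson r of 0.99 of each with the globin mean, over 21 libraries, log2 CPM, as a description). Each globin is part of that mean and has a near-identical copy in it, so part of this r is built in. That does not hold for the other members, which are outside the mean. Alas2 had r = 0.87 with the globins, Slc4a1 0.63 and Hemgn 0.62, and Slc4a1 had 0.76 with Hemgn. Among 14226 other genes with a mean of at least 1 CPM, the 10 whose deviations were most like the members' mean were Il36g (r = 0.88), Ermap (0.84), Pclaf (0.84), Chil3 (0.83), Igkc (0.83), Ngp (0.83), S100a9 (0.83), Gsdmd (0.81), Arrdc4 (0.81) and Fpr2 (0.81). Of these Ermap encodes a red cell surface protein, Pclaf a factor of dividing cells, Igkc an antibody light chain, and Ngp and S100a9 neutrophil proteins. Points of 1 group share genotype, treatment and set of names, but the con/ko groups mix C-coded and L-coded libraries. The deviations therefore include the difference between the letters. Each of the 10 genes had a higher r with Slc4a1 (0.79 to 0.94) than with the globin mean (0.60 to 0.72). Ermap lay at 5.65 to 22.6 CPM in L-coded, 1.137 to 3.71 in C-coded, 0.50 to 1.66 in CFA and 0.21 to 0.43 in LDRG libraries. Arrdc4 did not follow the sets, at 26.4 to 29.2, 22.0 to 25.6, 25.5 to 30.6 and 29.7 to 34.3 CPM in the same order.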

How the data were processed

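Poly-A RNA of mouse dorsal root ganglia was sequenced as paired 150-base reads, per the labels' protocols. The deposited values are whole-number counts per gene, not normalized, in a table of 14 libraries (24524 genes) and a table of 7 (24512 genes). The submitters' processing notes name fastp 0.23.2, BWA 2.2.1, SAMtools 1.14, DESeq2 1.40.2 and build mm10; for the read counter, no name or setting is given in the sources used. Groups came from sample titles. The 7 members and the gene lists were chosen with earlier results of these data known. Levels are CPM on TMM-adjusted library sizes of all 21 libraries. Tests used edgeR 4.0.16 in R 4.3.3 (glmQLFit, glmQLFTest) on the counts as deposited, after filterByExpr by the 6 groups (minimum count 10, minimum total 15), with Benjamini-Hochberg adjustment over all genes and calls at 0.05; the script was tested on simulated data. Gene positions and lengths are from GENCODE, promoters from RefSeq (GRCm38.p6). Per list, up to 4 genes with the smallest p in a comparison were named, with markers at 0, and the 10 most alike genes; Sptb, Xk, Alas1, Elane and a few more genes were added to that rule's choice with their values known. Alternatives were DESeq2 1.42.0, other scaling and filters, summed copies, other covariates, a replicate block and leaving out each library; analyses of C-coded or L-coded libraries alone were in part added after seeing the data. Some genes of the lists are not reported by name here. Same-numbered libraries of the 2 genotypes did not deviate together.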

Additional observations from a re-analysis of the deposited data

Results flagged for a closer look

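In the con/ko cKO group of 4 libraries, replicate 7 lay far from the other 3 for both Slc4a1 and Hemgn. Slc4a1 stood at 157.9 CPM there, and the next library had 15.1 CPM, a gap of 0.937 of the whole range, beyond the 95% limit of Dixon's test for 4 samples. Hemgn stood at 20.1 CPM, and the next library had 2.28 CPM, a gap of 0.927 of the range. Replicate 7 is the only L-coded library of that group. Of 21 combinations of a gene and a group of 4 libraries examined, these 2 stood out, and chance gives about 1 in 20.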

How the results depend on the processing

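Leaving out a library kept the direction and side of the threshold in 614 member results, turned the sign in 12 and brought 4 past the threshold; other settings gave 450, 8 and 5, and 1 lost its call (Hemgn, CFA minus con/ko coded C alone). Between the code letters the count of members called moved from 0 to 2 with DESeq2 and to 2 with no genotype term, and ran from 0 to 2 when 1 library was left out. The cause was not tested. Differences near 0 changed sign. For cKO minus flox in untreated libraries, Slc4a1 was 0.15 with DESeq2, 0.66 in LDRG libraries alone and 0.16 with the code letter as a term, and with 1 library left out Slc4a1 ran from -1.37 to 0.60, Alas2 from -0.14 to 0.42 and Hemgn from -1.87 to 0.070. For C minus L with the letter F or M as a term, Hba-a1, Hba-a2 and Hbb-bs were 0.072, 0.070 and 0.095, and with 1 library left out they ran from -0.79 to 0.083, -0.77 to 0.094 and -0.78 to 0.044. The genotype by CFA value of Hemgn ran from -1.54 to 5.14.

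With a replicate block the counts of members called were 0 for genotype in untreated and in CFA libraries, 6 for CFA against LDRG and 0 for genotype by CFA, as without it. Alas2 was then -0.14 for genotype in untreated libraries and Hemgn 0.72 for genotype by CFA. Correlations of same-numbered deviations ran from -0.14 to 0.20, so the numbers were not taken as pairs.

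Over all genes, calls for C against L were 223, against 1471 with DESeq2, 588 with no genotype term, 16 without a filter, 12 at a mean of at least 5 CPM, 14 with the letter F or M, and 12 to 536 with 1 library left out. Untreated genotype gave 1 call against 40 with DESeq2, 3 in LDRG alone, 40 in con/ko alone and up to 44 with 1 library left out. CFA genotype gave 0 against 18 with DESeq2, and genotype by CFA 0 against 25. CFA against LDRG gave 2801 against 436 in flox alone, 325 in cKO alone and 1710 with the replicate block. Low counts limit Hemgn and Slc4a1 in LDRG libraries.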
